A study of Mus musculus with 2 samples.

Results

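Both arms of miR-335, a microRNA (miRNA) within the gene Mest, and both arms of miR-483, a miRNA within the gene Igf2, were followed in the mouse tongue primordium. They are 4 of the 1080 miRNAs on the array, taken by name as mmu-miR-335-5p, mmu-miR-335-3p, mmu-miR-483 and mmu-miR-483* (the species prefix is left out below), and are read by 12 of its 2780 miRNA probes. ICR mouse embryos were collected on embryonic days E10.5 and E11.5, the medial part of their mandibular arches was dissected, and RNA of 40 embryos was pooled per stage and run on 1 array per pool; no allele or treatment is given in the labels. Per the series description, muscle regulatory genes become active in this window. A pool averages its embryos, the dissected region holds several tissues, and there was no replicate, so nothing was tested and every value describes 2 arrays. The precursors were selected on earlier values of these same arrays, the scaled stage differences of their arms, so those differences are given as a description. In bulk tissue, fewer cells of a type and less RNA per cell cannot be told apart.

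A miRNA precursor folds into a hairpin that Dicer cuts into a short duplex. One strand is usually kept by an Argonaute protein and pairs with target mRNAs through its seed, bases 2 to 8, while the other is mostly degraded, so both arms of a hairpin arise from the same transcript but need not accumulate alike. Mest and Igf2 are imprinted and expressed from the paternal allele, mainly in mesodermal tissues of the embryo. Igf2 encodes a fetal growth factor, and Mest encodes a protein of the hydrolase fold. miR-335-5p has been described as a regulator of migration and proliferation in mesenchymal cells, and miR-483-3p, the later name of miR-483*, as a regulator of lipid storage in adipocytes.

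The mature sequences, from RefSeq (GRCm38.p6), show what each probe must read. They are written 5′ to 3′ with the seed in capitals.
miR-335-5p: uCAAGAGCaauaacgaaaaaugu
miR-335-3p: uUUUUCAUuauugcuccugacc
miR-483: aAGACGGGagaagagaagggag
miR-483*: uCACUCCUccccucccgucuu
All 4 matched an entry, miR-483 as miR-483-5p and miR-483* as miR-483-3p. Their 4 seeds differ, and no other of the 1679 mature mouse names in that table has one of them. Composition separates the arms of each hairpin: miR-335-5p is 69.6% purine and miR-335-3p 22.7%, while miR-483 is 95.5% purine and miR-483* 9.52%.

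The hairpins are shown to place the arms, which are in capitals.
Mir335: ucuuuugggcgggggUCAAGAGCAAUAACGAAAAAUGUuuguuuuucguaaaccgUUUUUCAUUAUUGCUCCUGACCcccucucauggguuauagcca
Mir483: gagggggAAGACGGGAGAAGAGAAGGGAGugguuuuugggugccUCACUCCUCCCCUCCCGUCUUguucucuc
Mest was the gene whose span held Mir335, and Igf2 the one that held Mir483, in the RefSeq gene list of GRCm38.p6. Exons and introns were not given there; both miRNAs are known as intronic. The scanner files (mm9) place the probe targets of miR-335-5p at chr6:30691319-30691336 and those of miR-335-3p at chr6:30691355-30691375. For miR-483 they list chromosome 7, 149840857 to 149840846, and for miR-483* 149840893 to 149840877. RefSeq has Mir483 on the minus strand, where the 5′ arm has the higher coordinate, whereas the file gives the higher coordinate to miR-483*, so these positions locate the hairpin and not the arms within it. Each listed range is 1 base shorter than its longest probe.

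The probes pair with the 3′ end of a miRNA, and probes of one miRNA differ only in how far they reach towards its 5′ end. Written 5′ to 3′, with the bases beyond the shortest probe in capitals, the longest ones were as follows.
miR-335-5p probe: acatttttcgttattgctC
miR-335-3p probe: ggtcaggagcaataatgaaAAA
miR-483 probe: ctcccttctcTTC
miR-483* probe: aagacgggaggggaggaG
The array held probes of 18 and 19 bases for miR-335-5p, of 19, 20, 21 and 22 for miR-335-3p, of 10, 11, 12 and 13 for miR-483 and of 17 and 18 for miR-483*. The miR-483 probes end at base 10 of the miRNA at the most and so leave out its seed, while the 22-base probe of miR-335-3p covers all 22 bases. Each of the 12 probe targets matched 1 mature mouse sequence in RefSeq exactly. The longest stretch shared with any other mature sequence was 10 of 13 bases for the longest miR-483 probe (miR-3059-3p and miR-6925-5p), 10 for the miR-483* probes (miR-484) and 9 for the longest miR-335-3p probe (miR-7227-5p) and the miR-335-5p probes (miR-719). Whether these miRNAs add to the signal was not tested.

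All 4 miRNAs were detected at both stages, against 144 of the 1080 (13.3%) at E10.5 and 199 (18.4%) at E11.5. Detection of a probe required that 50% or more of its spots be well above background, and by this rule 8 of the 12 probes were detected on both arrays, against 218 of 2780 (7.84%) on the whole array. The precursors were chosen on the stage differences of their arms, which need signal on both arrays. These detection shares are therefore a description, not a finding about the 4. Intensity is the processed spot signal, in which Feature Extraction subtracted a background from the mean spot brightness. The lowest detected probes on the arrays had 30.9 (E10.5) and 29.5 (E11.5), and negative control spots averaged 7.87 ± 6.16 and 5.88 ± 5.60 (SD, n = 1000 spots each). No miRNA spot was saturated. Errors on the miRNAs are over repeated spots of a probe (10 or 20 per array), and hold spot noise only, not the spread between embryos or arrays.

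miR-335-5p was brighter at E11.5 on both of its probes. The 19-base probe averaged 324 ± 12.4 (SD, n = 20 spots) at E10.5 and 706 ± 18.5 (n = 18) at E11.5. The 18-base probe averaged 35.2 ± 5.60 (n = 19) and 81.5 ± 5.84 (n = 20). No spot of one stage reached into the other on either probe: the highest spot of the 19-base probe at E10.5 was 346 and the lowest at E11.5 was 667, and on the 18-base probe these were 47.8 and 72.0. The log2 ratio of E11.5 to E10.5 before any scaling was 1.12 ± 0.015 (SE) on the longer probe and 1.21 ± 0.058 on the shorter. The E11.5 array was brighter as a whole, with a median of 1.20 over the 218 probes detected on both arrays. How many other probes had spots apart was not counted.

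miR-335-3p, cut from the same hairpin, was slightly dimmer at E11.5. Its 22-base probe averaged 77.0 ± 5.71 (SD, n = 10 spots) at E10.5 and 63.7 ± 9.81 (n = 10) at E11.5. Its 21-base probe averaged 58.9 ± 6.80 and 49.9 ± 5.41, and its 20-base probe 41.5 ± 8.31 and 34.8 ± 3.45 (n = 9 at E11.5). On all 3 probes the mean was lower at E11.5 and the spots of the stages overlapped, with 68.9 to 85.6 against 50.8 to 77.5 on the 22-base probe. The 19-base probe, at 23.4 ± 6.18 and 22.1 ± 7.75, did not pass this rule on either array. Before scaling, the log2 ratios of the 3 detected probes were -0.25 ± 0.10, -0.24 ± 0.072 and -0.27 ± 0.078 (SE) from the shortest to the longest, so the ratios of the 3 probes differed by less than their spot errors while their brightness differed.

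miR-483 was brighter at E11.5 on each probe that was detected there, on an array that was brighter as a whole. Its 13-base probe averaged 40.9 ± 5.86 (SD, n = 10 spots) at E10.5 and 104 ± 6.56 (n = 10) at E11.5, with the highest spot at 50.3 in the first and the lowest at 96.3 in the second. Its 12-base probe averaged 30.1 ± 3.44 (3 of 10 spots well above background) and 68.5 ± 8.16, and its 11-base probe 7.37 ± 4.05 (0 of 9) and 31.9 ± 6.94 (5 of 10). These 2 probes were detected at E11.5 only, so a fold is a lower bound: before scaling, the 12-base probe was at least 2.22-fold and the 11-base probe at least 1.03-fold higher at E11.5, against the lowest detected intensity of the E10.5 array. After scaling neither has a bound above 1. The 10-base probe was near 0 on both arrays (-2.60 ± 3.04 and 3.72 ± 5.16).

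The probes of miR-483*, the other strand of that hairpin, disagreed. The 18-base probe averaged 110 ± 6.56 (SD, n = 20 spots) at E10.5 and 216 ± 13.2 (n = 20) at E11.5, and its spots did not overlap (123 at the highest and 193 at the lowest). The 17-base probe, which lacks only the last base, averaged 36.6 ± 4.51 (n = 19) and 34.1 ± 3.03 (n = 16), with overlapping spots (30.1 to 44.5 and 28.9 to 39.0). The log2 ratios before scaling were therefore 0.97 ± 0.028 (SE) on the longer probe and -0.10 ± 0.052 on the shorter. The median over the 218 probes detected on both arrays was 1.20. The shorter probe stood close to the detection limit on both arrays, and 4 of its 20 spots at E11.5 were left out as outliers.

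**Figure D1:**
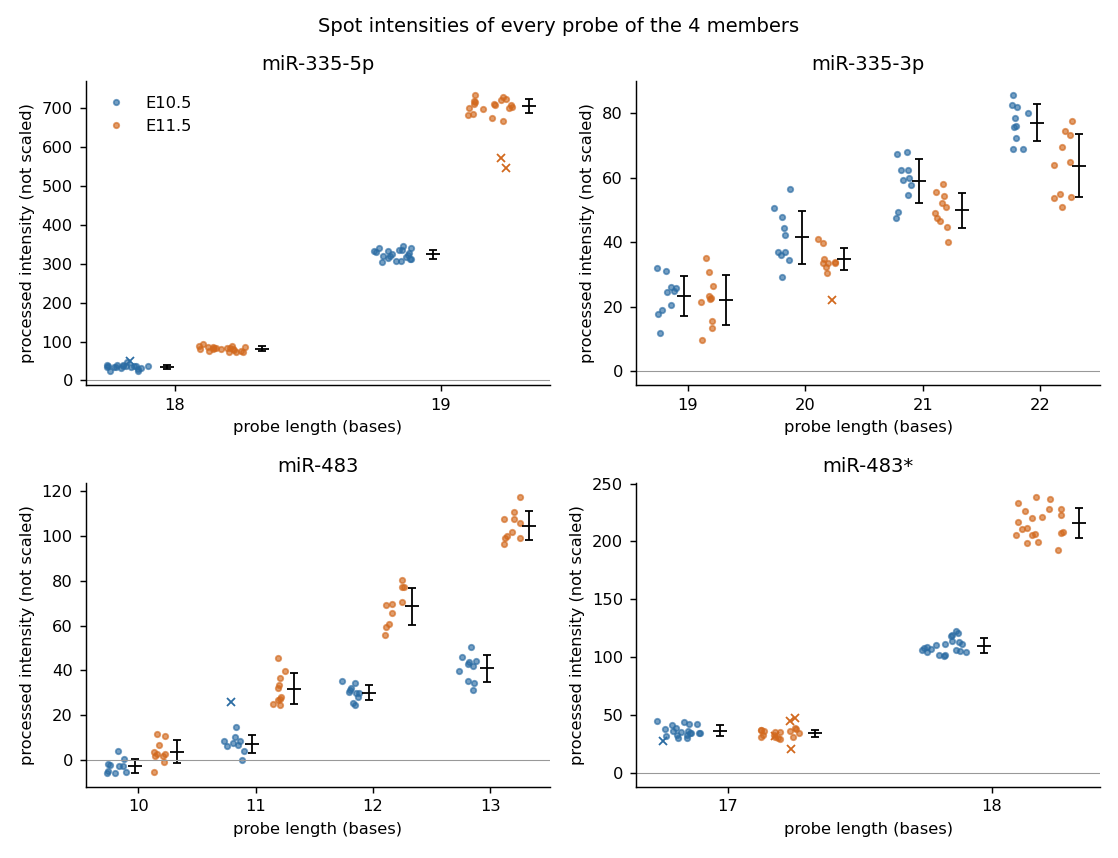
Processed intensity (not scaled) of every spot of the 12 probes by probe length in bases, E10.5 in blue and E11.5 in orange, with the mean ± SD in black; crosses are outlier spots left out of the mean. The stages are apart on both miR-335-5p probes and on the 18-base miR-483* probe, and overlap on all miR-335-3p probes and on the 17-base miR-483* probe. The E11.5 array was brighter as a whole.

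On the 8 probes detected on both arrays, the raw brightness had the same directions before the background was taken off. The background subtracted from these probes was 94.9 to 96.8 at E10.5 and 88.9 to 90.7 at E11.5, and the processed signal of the 22-base miR-335-3p probe was 44.3% and 41.4% of its raw brightness (174 ± 5.66 and 154 ± 9.49, SD). That of the 19-base miR-335-5p probe was 77.4% and 88.8%. Raw log2 ratios were -0.18 for the former and 0.92 for the latter, 0.50 for the 13-base miR-483 probe, and 0.58 and -0.10 for the longer and shorter miR-483* probes. The dimmer 18-base miR-335-5p probe had 0.38, and the 20-base and 21-base miR-335-3p probes had -0.14 and -0.15. Dim probes thus depend more on the subtraction, which differed by about 6 units between the arrays (-6.71 to -5.53 over these probes).

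**Figure D2:**
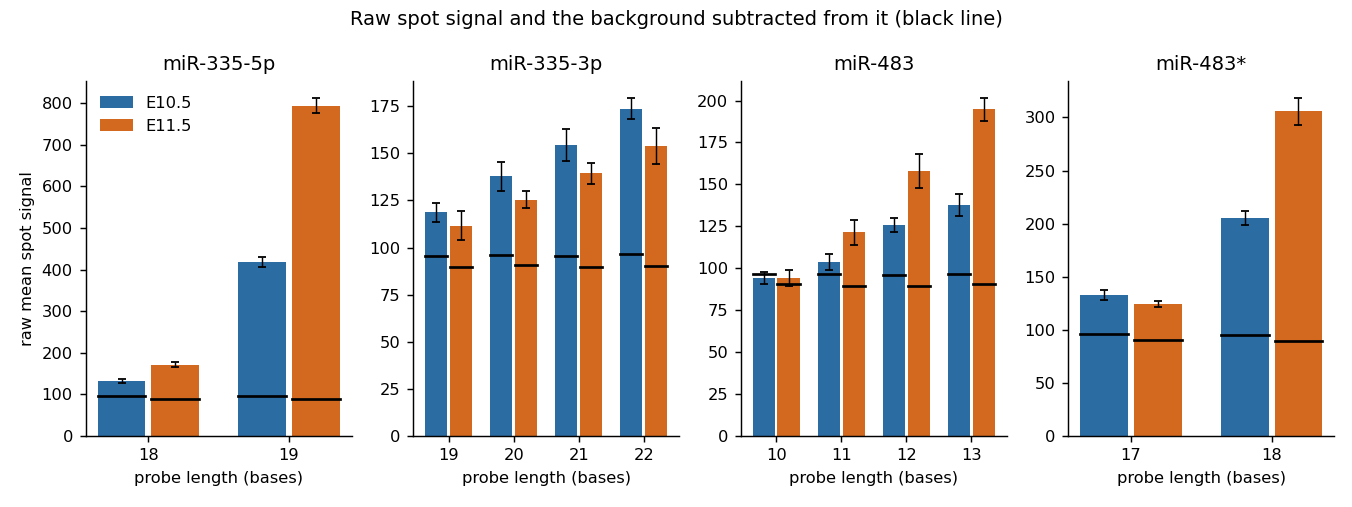
Raw mean spot signal (bars from 0, ± SD over spots) of each member probe by probe length in bases at E10.5 (blue) and E11.5 (orange), with the background that Feature Extraction subtracted as a black line; each panel has its own axis. The bars of miR-335-3p are lower at E11.5 than at E10.5 on every probe, while those of miR-335-5p are higher at E11.5.

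The E11.5 array was the brighter one, and this sets how the values read. Over the 218 probes detected on both arrays the median log2 ratio was 1.20, and over the 20 control probes detected on both it was 0.49 (0.26 to 0.90). Scaling set the 75th percentile of those 218 probes equal on both arrays, which lowers each log2 ratio by 1.31. A scaled difference is therefore relative to the other detected miRNAs, and its median over the 137 miRNAs measured at both stages was -0.07.

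On the scaled basis miR-335-3p was lower at E11.5, at -1.57 ± 0.049 (SE over spots, 3 probes), or 2.97-fold. It was the second lowest of the 137 miRNAs and the only one of the 4 to pass 2-fold, where 19 of 137 (13.9%) were at least 2-fold lower and 5 (3.65%) at least 2-fold higher. Of the 4, 3 were below 0 on this basis, as were 72 of 137 (52.6%). Before scaling it was 1.19-fold dimmer, and 13 of 137 miRNAs (9.49%) were dimmer at all, so its direction did not rest on the scaling but its 2-fold size did. The miRNAs on either side of the 2-fold line were miR-18a (-1.10 ± 0.013) and miR-677* (-0.996 ± 0.082). miR-335-5p was at -0.15 ± 0.030 (2 probes) and had 62 miRNAs below it, so relative to the other miRNAs it stayed near the middle, and unscaled it was 2.25-fold brighter.

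The scaled difference of miR-483 was 0.04 ± 0.071 from its 13-base probe, with 75 of the 137 below it, and unscaled it was 2.55-fold brighter. miR-483* was at -0.88 ± 0.029 as the mean of its probes, and 23 miRNAs were below it. That mean lies between values that differ by far more than their spot errors, -0.34 ± 0.028 on the 18-base probe and -1.42 ± 0.052 on the 17-base probe. A gap of 1.08 between probes was wider than that of each of the 77 non-member miRNAs with at least 2 probes measured (median 0.06, largest 0.89). For miR-335-3p the gap was 0.03 and for miR-335-5p 0.09.

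**Figure D3:**
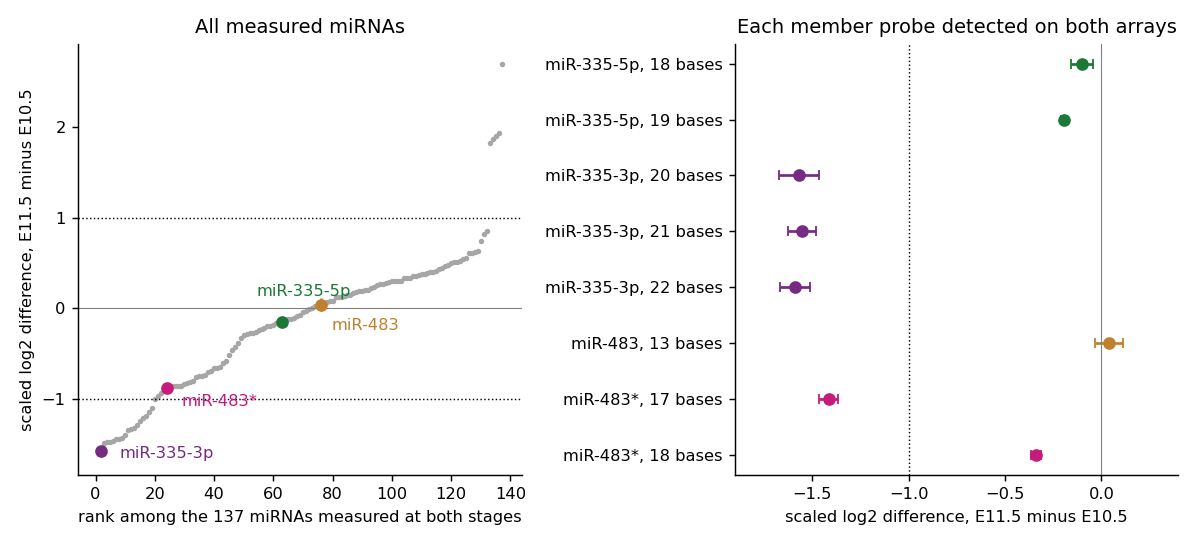
Left, scaled log2 difference (E11.5 minus E10.5) of the 137 miRNAs measured at both stages in rank order, members in colour with SE over spots and dotted lines at 2-fold; right, each member probe detected on both arrays with its SE. The 3 miR-335-3p probes lie together near -1.57, the miR-335-5p probes near -0.15, and the miR-483* probes at -1.42 and -0.34.

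Compared arm with arm, the scaling drops out, since a constant per array moves both arms alike. miR-335-3p minus miR-335-5p was -1.42 ± 0.058 (SE over spots), a 2.68-fold shift of the 3′ arm against the 5′ arm from E10.5 to E11.5. Over the 6 pairings of a 3p probe with a 5p probe it ran from -1.49 to -1.36. It was -0.86 when the background was corrected with normexp, which leaves a positive offset under dim probes. For miR-483* minus miR-483 the value was -0.92 ± 0.077 from the probe means, -0.38 with the 18-base and -1.45 with the 17-base miR-483* probe, and -0.33 with normexp. The sign was the same throughout, and the size rested on which miR-483* probe was taken and on the background correction. The reported value has the 13-base probe alone on the miR-483 side, which averaged 40.9 at E10.5.

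Arms of one hairpin were usually closer. Among 11 precursors with both arms measured, 1 (9.09%) had arms at least 2-fold apart, and it was miR-335. The 9 other precursors had a median absolute gap of 0.21, up to 0.63 for miR-17 (-1.44, with miR-17* at -0.80), and as small as 0.05 for miR-532 and 0.02 for miR-411. miR-335 and miR-483 were both chosen on earlier values of their arms' stage differences, so their places in this order are a description.

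**Figure D4:**
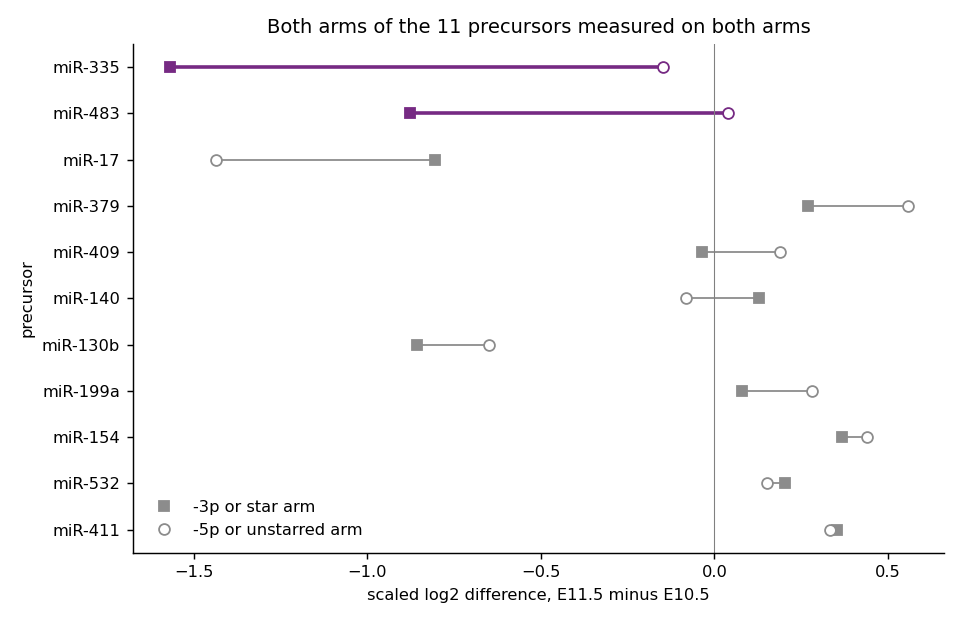
Scaled log2 difference (E11.5 minus E10.5) of both arms of the 11 precursors, filled squares for the -3p or star arm and open circles for the other, ordered by the gap between arms. The gap is 1.42 for miR-335 and 0.92 for miR-483, and at most 0.63 for the other 9 under the settings used for the reported values.

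Because the arms of each hairpin lay apart, the miRNAs with the scaled differences closest to each arm, over these 2 arrays, had to differ. For miR-335-3p they were miR-200c (-1.59 ± 0.034, a distance of 0.02), miR-1949 (-1.48 ± 0.034) and miR-182 (-1.48 ± 0.071). For miR-335-5p they were miR-323-3p (-0.16), miR-675-3p (-0.14) and miR-361 (-0.16), and for miR-483 they were miR-21 (0.05), miR-26b (0.03) and miR-27a (0.03). For miR-483* they were miR-19a (-0.86), miR-2145 (-0.90) and miR-7a (-0.86), a comparison that moves with the probe chosen.

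Of 7 epithelial miRNAs on the list (miR-200a, miR-200b, miR-200c, miR-141, miR-429, miR-205 and miR-203), 4 were measured at both stages, and after scaling all 4 were lower at E11.5 and 3 by at least 2-fold, with a median of -1.37, against 52.6% lower and 13.9% at least 2-fold lower over all 137. Unscaled their median was -0.06, and miR-429 (0.03) and miR-205 (0.46) were brighter at E11.5. Neither array detected miR-200a or miR-141, and miR-203 appeared at E11.5 alone. The summed gene signal of all 7, from Feature Extraction's total per miRNA, not scaled between arrays, was 296 (E10.5) and 324 (E11.5). The 4 striated muscle miRNAs (miR-1a, miR-133a, miR-133b and miR-206) were detected at E11.5 only, with 7.31 and 258, and neural miR-9 and miR-124 were detected at neither stage. Of 3 blood miRNAs 1 was measured at both stages, miR-451, at -0.60 scaled and 0.71 unscaled, and miR-223 was detected at E11.5 only. Of 2 endothelial ones 1 was measured at both stages, miR-126-3p, at -0.81 scaled and 0.50 unscaled. The unscaled summed signals were 53.1 and 81.3 for the blood list and 156 and 219 for the endothelial list. Whether a change in the share of any of these tissues bears on the arms was not tested.

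Other imprinted loci gave values for only some of their miRNAs. miR-675-3p, cut from the maternally expressed H19 RNA that neighbours Igf2, was at -0.14 ± 0.041 (1.18 unscaled), and the other miR-675 arm was not detected. At the Gnas locus miR-296-5p was at -0.58 ± 0.036 and miR-298 at -0.66 ± 0.061, with unscaled log2 ratios of 0.73 and 0.66. None of the 55 miRNAs of the miR-297, miR-466, miR-467 and miR-669 families with a target on chromosome 2, where the imprinted gene Sfmbt2 lies, was detected. Of the miRNAs in the Dlk1-Dio3 region of chromosome 12, expressed from the maternal allele, 32 were measured at both stages: 27 were higher and 5 lower, 2 of them at least 2-fold, with a median of 0.34 (1.66 unscaled), from miR-494 (-1.39) to miR-376a (0.64). Over all 137 measured miRNAs 65 were higher and 72 lower.

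The authors' deposited table lists the 4 miRNAs on its own normalized scale. It comes from the same 2 arrays and is not a separate measurement. miR-335-3p is at 49.4 at E10.5 and 17.1 at E11.5 in the authors' deposited table, and miR-335-5p at 183 and 150. For miR-483 the authors' deposited table has 17.1 and 20.4, and for miR-483* 73.4 and 49.6. As log2 differences these are -1.53, -0.29, 0.26 and -0.56, so the authors' deposited table has the arms of each hairpin apart in the same directions, at -1.24 for miR-335-3p minus miR-335-5p and -0.82 for miR-483* minus miR-483.

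**Figure D5:**
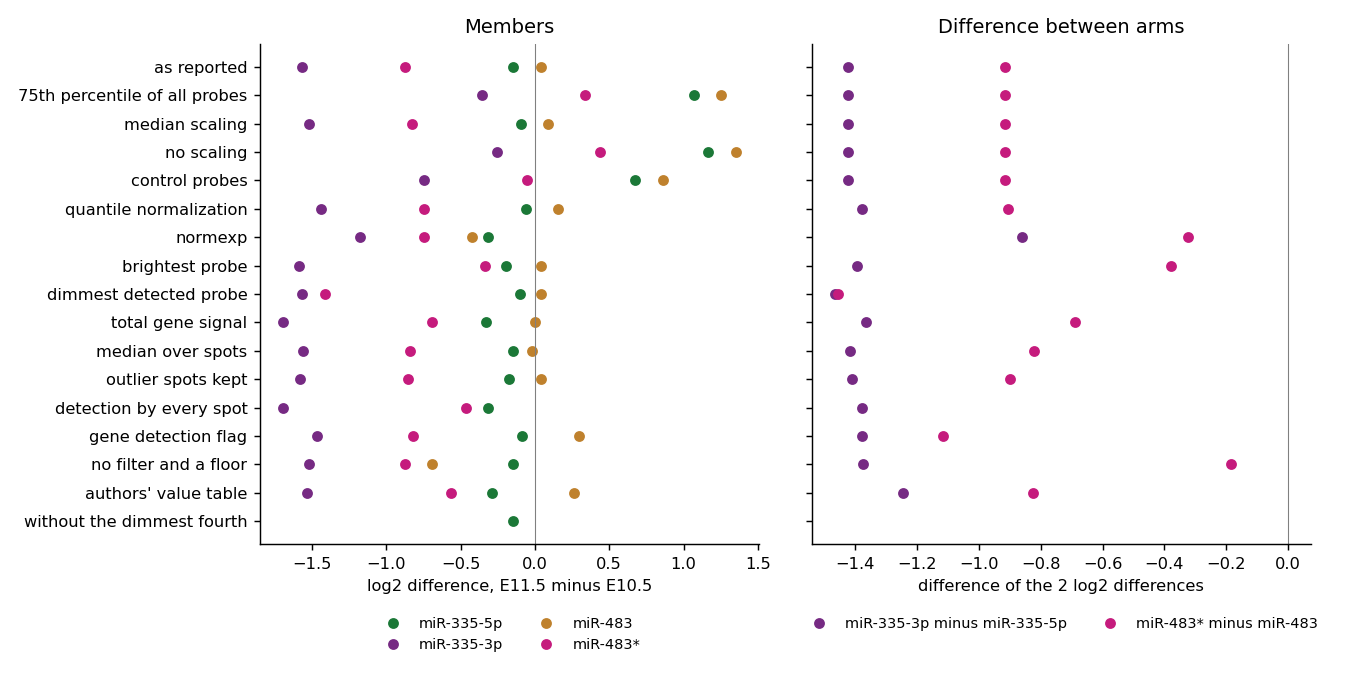
Log2 differences (E11.5 minus E10.5) of the 4 miRNAs (left) and the difference between the arms of each hairpin (right) under each processing setting; a missing point means that the setting gave no value. The members shift together with the scaling, while the miR-335 arm difference, which a constant scaling cannot move, stays between -1.47 and -0.86.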

How the data were processed

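Per the labels' protocols, the RNA carried Cy3 and was read on 1-colour arrays. Per the file headers, Feature Extraction 10.7.1.1 made the deposited spot intensities by subtracting a background, without normalizing between arrays, for design 031184 on mm9; version 9.5.1.1 stands in the submitters' processing notes. How the authors normalized the deposited value table (linear intensity, column medians 0.1 and 0.1) is not given in the sources used here.

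Outlier spots (2058 of 43200 on the E10.5 array, 2118 on the other) were dropped before averaging each probe. Log2 of each probe mean was scaled to the 75th percentile of probes detected on both arrays, and each miRNA took the average of those of its probes. SEs are over spots. The number of arrays limits the precision. Members and lists were chosen with earlier results of these data known. Every member probe is named, with for each member the 3 miRNAs of nearest difference, the pairs of arms with the widest and the 2 with the smallest gaps, miRNAs sharing a seed, the neighbours of the 2-fold line, and detected miRNAs of other imprinted loci. For Dlk1-Dio3 only the extremes are named, a departure from that rule. Tissue lists covered striated muscle, epithelium, blood, neural tissue and endothelium. Alternatives covered scaling, background (limma 3.58.1 normexp, offset 50, on the local background), probes, spots and detection. The steps were run on simulated spots with known changes and a constant gain between arrays. Background was not simulated, so this does not cover how dim probes depend on its subtraction. Python 3.11.15, pandas 2.3.3, numpy 2.4.6, matplotlib 3.10.9 and R 4.3.3 were used.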

Additional observations from a re-analysis of the deposited data

How the results depend on the processing

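A constant scaling cannot move the arm differences or the order of the gaps. The counts of settings for these gaps include such scalings: no scaling, the median, control probes and all probes' 75th percentile. Those settings had to give the reported gap, and the rank counts also include the reported setting itself. Each alternative that gave the arm differences kept their sign. For miR-335-3p minus miR-335-5p, 14 of 15 alternatives stayed within 1 spot SD of -1.42, and normexp gave -0.86. Its gap was the widest of all pairs of arms in 15 of 16 settings, the exception being no filter and a floor, where 37 of 401 pairs were wider. The miR-483 gap was next to it in 10 of 15 settings and lower in rank in 4 (normexp, the brightest probe, the total gene signal and the authors' table), and 110 of 401 pairs were wider with no filter and a floor. For miR-483* minus miR-483, 10 of 14 stayed within 1 spot SD of -0.92, and the others were -0.33 (normexp), -0.38 (brightest probe), -1.45 (dimmest detected probe, added after the data were seen) and -0.18 (no filter and a floor). Single miRNAs moved with the scaling. With no scaling, scaling by all probes' 75th percentile, or scaling by control probes, miR-335-3p was at -0.26, -0.35 and -0.75, miR-335-5p at 1.17, 1.07 and 0.68, miR-483 at 1.35, 1.25 and 0.86, and miR-483* at 0.44, 0.34 and -0.054. With normexp miR-335-3p was at -1.18 and miR-483 at -0.42; miR-483 was at 0.30 with the gene detection flag and -0.69 with no filter and a floor. miR-483* was at -0.34 with the brightest probe, -1.42 with the dimmest, -0.69 with the total gene signal, -0.47 where every spot had to be detected and -0.56 in the authors' table. miRNAs at least 2-fold lower numbered 19, and 0, 0 and 0 under those 3 scalings, 12 without the dimmest quartile of the 137 miRNAs (by mean scaled log2 level over their probes and both arrays) and 937 with no filter and a floor, where undetected probes differ by construction because the floors were scaled differently. Those at least 2-fold higher numbered 5, and 88, 80 and 49 under those 3 scalings, and 9 under each of the gene detection flag and the authors' table. With detection by every spot 3 of the 4 were detected at E10.5, and miR-483 had no value; without that quartile of miRNAs only miR-335-5p had one. Several member probes stood near the detection limit on an array, among them the 17-base probe of miR-483* (36.6 and 34.1), the 18-base probe of miR-335-5p at E10.5 (35.2) and the 20-base probe of miR-335-3p at E11.5 (34.8).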

Other observations

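In the authors' deposited table every one of the 188 values above the listed minimum of 0.1 at E10.5 occurs again at E11.5, where 237 values lie above it (relative tolerance 1e-06). The value of miR-335-3p at E11.5 and that of miR-483 at E10.5 are the same number, 17.1. Ranks in that table followed the total gene signal, with Spearman's rho of 0.992 (E10.5) and 0.997 (E11.5) across miRNAs, which are not independent replicates.

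Feature Extraction's total gene signal combines all probes of a miRNA on a scale of its own, not that of the probe intensities above. This total was 28.4 (E10.5) and 24.1 (E11.5) for miR-335-3p, with 102 and 223 for miR-335-5p. It was 10.71 and 29.5 for miR-483 and 41.4 and 70.7 for miR-483*. On that measure, not scaled, miR-483 had the largest ratio of E11.5 to E10.5 among the 4, 2.75, and miR-335-5p, miR-483* and miR-335-3p had ratios of 2.19, 1.71 and 0.849.

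The 218 probes detected on both arrays were split by brightness. From the dimmest to the brightest quartile at E10.5 the median unscaled log2 ratio was 1.21, 1.32, 1.25 and 1.104. Of the member probes, 4 lay in the dimmest quartile: the 18-base probe of miR-335-5p (1.21 unscaled) and the 13-base probe of miR-483 (1.35) were brighter at E11.5, and the 20-base probe of miR-335-3p (-0.25) and the 17-base probe of miR-483* (-0.10) were dimmer. The 21-base and 22-base probes of miR-335-3p lay in the next quartile. The part of brightness in these ratios was not tested.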
